A study of Homo sapiens with 2 samples.

Results

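The genes described are 10 human genes of cellular iron uptake, storage, release and export: TFRC, TF, SLC11A2, FTH1, FTL, NCOA4, SLC40A1, HAMP, ACO1 and IREB2. They were given as a list of symbols and matched through their Entrez gene IDs to 10 of the 27685 genes in the deposited files. The cells were PLC/PRF/5, a long-established human line from a hepatocellular carcinoma, and their RNA was sequenced after 24 h in 6 µM JIB-04 or 24 h in DMSO, the solvent. JIB-04 is an inhibitor of Jumonji histone demethylases, enzymes that need iron and 2-oxoglutarate. There was 1 library per condition, both from the same cell line, and 1 label of the DMSO library reads untreated although its title names DMSO.

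Cells take up iron as diferric transferrin through the transferrin receptor, keep it in ferritin and release it through ferroportin, which the liver hormone hepcidin removes from the membrane. When iron is scarce, the iron regulatory proteins IRP1 and IRP2 bind iron-responsive elements (IREs), short hairpins in the untranslated regions of mRNAs. At the 5′ end of ferritin and ferroportin mRNAs this binding blocks translation, and in the 3′ UTR of transferrin receptor mRNA it protects the mRNA from decay. A shortage of iron is therefore known to raise TFRC mRNA, while its effect on ferritin and ferroportin through the IREs is on the protein, which was not measured here. Hepatocytes are the main source of hepcidin and transferrin, and hypoxia-inducible factors are known to raise transcription of both TFRC and TF.

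The hairpins that set these rules apart are shown because they place the members with 5′ and with 3′ elements. A loop with its bulged C and upper stem was searched as CNNNNNCAGTGN, on the transcript strand only, with at least 4 of 5 stem positions paired (G with T allowed), in GENCODE 29 transcripts of build GRCh38. Of the 10 genes, 9 had a transcript linked to a deposited model and within 5% of its length, and TF had none. The stretches below run 5′ to 3′ in DNA letters, with the 6 loop bases in capitals.
FTH1, 5′ UTR, chr11:61967573-61967602, minus strand: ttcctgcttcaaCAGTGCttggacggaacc
FTL, 5′ UTR, chr19:48965335-48965364, plus strand: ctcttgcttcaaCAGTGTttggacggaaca
SLC40A1, 5′ UTR, chr2:189580660-189580689, minus strand: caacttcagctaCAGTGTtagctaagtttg
TFRC, 3′ UTR, chr3:196050978-196051007, minus strand: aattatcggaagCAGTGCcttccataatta
TFRC, 3′ UTR, chr3:196050574-196050603, minus strand: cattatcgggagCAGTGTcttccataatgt
TFRC, 3′ UTR, chr3:196050509-196050538, minus strand: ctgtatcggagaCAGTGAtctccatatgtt
TFRC, 3′ UTR, chr3:196050462-196050491, minus strand: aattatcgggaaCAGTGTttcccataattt
SLC11A2, 3′ UTR, chr12:50988268-50988297, minus strand: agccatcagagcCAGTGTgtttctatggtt

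The stretches of FTH1, FTL, SLC40A1 and TFRC paired at all 5 stem positions and that of SLC11A2 at 4. A match with 5 pairs was present in the first 250 bases of 18 of 19673 coding genes' longest transcripts (0.0915%), and in the last 2500 bases of 91 of 11541 (0.788%). TFRC was the only gene with 4 such matches in that last window. Elements with another loop sequence could not be found by this search, so the matches are not a full count of IREs. With 4 pairs allowed, the shares were 0.696% and 6.99%. At that setting the 3′ UTR of IREB2 also matched, as did the last window of the longest ACO1 transcript, which describes letters and not a known element. The SLC11A2 match lies in exon 16 of 16 of a transcript linked to the deposited model that ends nearer to the start of the gene.

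The JIB-04 library held an estimated 23721989 fragments and the DMSO library an estimated 28187793, from the coverage in the files at 202 aligned bases per fragment. Levels are in TPM, a share of all transcripts corrected for length, summed over the transcripts of a gene. The log2 ratio compares JIB-04 with DMSO after 1 was added to each TPM, and so understates the change of weakly expressed genes. No difference has a replicate check, so no test was made, and intervals are 95% exact conditional binomial intervals on estimated fragments, which cover counting error only. Over the 14450 genes that reached 1 TPM with JIB-04 or with DMSO, the median log2 ratio was -0.15. Of 10 hepatocyte markers 9 reached 1 TPM, with summed levels of 1441 TPM with JIB-04 and 1378 TPM with DMSO. Much of that sum was the fibrinogen gene FGB (961 and 771 TPM), and without it the list summed to 479.7 TPM with JIB-04 and 607 TPM with DMSO. APOB, which encodes apolipoprotein B, was at 32.9 TPM with JIB-04 and 103 TPM with DMSO, and SERPINA1, the alpha-1 antitrypsin gene, at 209 and 284 TPM. ALB, the albumin gene, was low at 4.53 TPM with JIB-04 and 9.74 TPM with DMSO. Of the same list, AFP was at 151 TPM with JIB-04 and 131 TPM with DMSO, and TTR at 7.06 and 3.91 TPM. HNF4A was at 72.3 and 71.9 TPM, so the hepatocyte markers did not share a direction. No marker of erythroid or endothelial cells reached 1 TPM, PTPRC and HBB were listed at 0 in both libraries, and the immune list (139 and 103 TPM with JIB-04 and DMSO) was nearly all CD68. Of 4 stellate and fibroblast markers, COL1A1 alone reached 1 TPM (summed level 10.7 TPM with JIB-04 and 16.3 TPM with DMSO), and of 4 cholangiocyte markers 3 did (54.5 and 44.5 TPM). The part of other cells in the results was not tested.

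Of the 10 genes, 9 passed the minimum of 1 TPM, and HAMP was listed at 0 in both libraries. None of the 9 was at least 2-fold higher or at least 2-fold lower with JIB-04, while 5.99% of all genes were higher and 6.88% lower at that threshold. At 1.5-fold, TFRC and FTH1 were higher, beside 12.8% of all genes, and SLC40A1 and IREB2 were lower, beside 21.0% of all genes. The median log2 ratio of the 9 genes was 0.15, with 6 above 0 and 3 below, and 7 of them lay above the median of all genes. With so few genes these shares do not set the list apart from the background. With both libraries scaled so that genes with at least 10 TPM in each had a median ratio of 1, every log2 ratio was about 0.15 higher, and TFRC alone passed 2-fold (log2 ratio 1.05). That scaling also changed the balance over all genes, since 62.2% of the genes past 2-fold were higher with it and 46.5% without it.

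**Figure D1:**
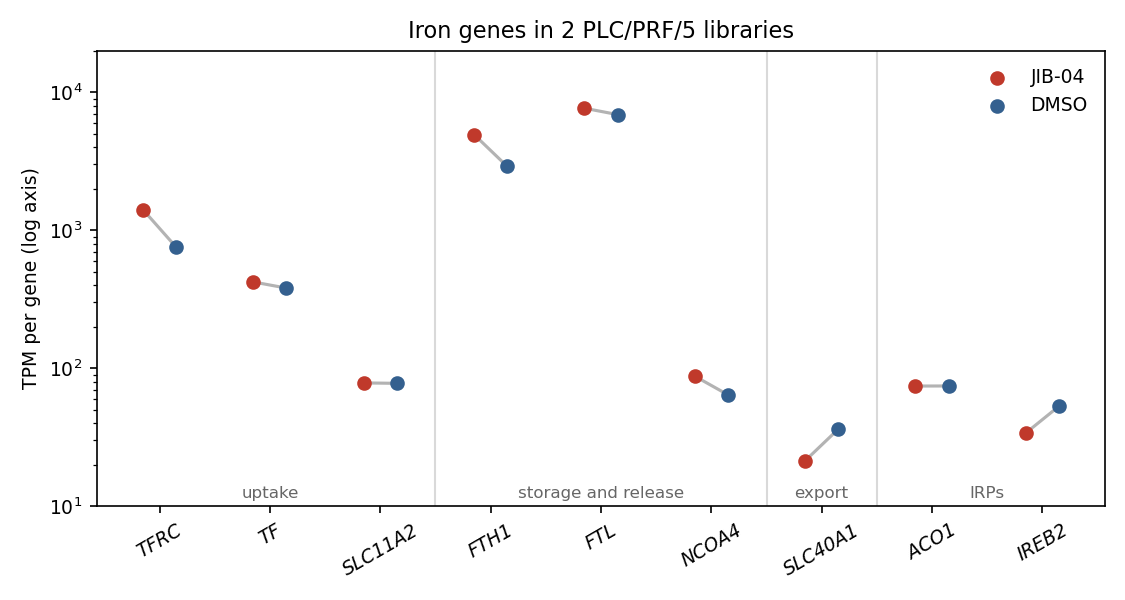
TPM per gene on a log axis for the 9 iron genes above 1 TPM, with the JIB-04 library in red and the DMSO library in blue, 1 library each and no error bars. TFRC and FTH1 stand higher with JIB-04 (1410 and 4939 TPM) than with DMSO (755 and 2904 TPM), SLC40A1 and IREB2 stand lower, and HAMP, listed at 0, is not drawn.

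Among the uptake genes, TFRC (Entrez ID 7037, chromosome 3 of hg19, 195776155 to 195809032, minus strand), which encodes transferrin receptor 1, was at 1410 TPM with JIB-04 and 755 TPM with DMSO. The log2 ratio was 0.90 (interval 0.88 to 0.92), above that of 92.8% of all genes, and it rests on 71228 and 46384 estimated fragments with JIB-04 and DMSO. TFRC ranked 70th by TPM among all genes with JIB-04 and 169th with DMSO. It was the highest ratio of the 9 genes and the nearest to 2-fold.
The receptor's ligand transferrin, encoded by TF (Entrez ID 7018, chromosome 3, 133464977 to 133497850, plus strand), was at 422 TPM with JIB-04 and 381 TPM with DMSO. Its log2 ratio was 0.15 (interval 0.11 to 0.18), higher than in 69.3% of genes, and the transcript is thus abundant in this hepatoma line under both conditions. SLC11A2 (Entrez ID 4891, chromosome 12, 51373566 to 51422058, minus strand) encodes DMT1, the transporter that carries ferrous iron out of the endosome. It was at 78.2 TPM with JIB-04 and 77.7 TPM with DMSO, a log2 ratio of 0.01 (interval -0.06 to 0.08), so its levels differed by less than the counting error.

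The exons gave a closer view of TFRC. The coverage of each stretch of exon was put on the TPM scale of its library and compared between libraries, for stretches of at least 40 bases that at least 50% of the gene's transcripts contain and that had a coverage of at least 5 with DMSO. All 20 stretches of TFRC were higher with JIB-04, with ratios between 1.73 and 2.44 and a median of 1.98, and 9 of them were at 2 or more. The lowest ratio was that of the last exon, of 2901 bases, at 1308 with JIB-04 and 756 with DMSO on that scale. A low last stretch was not particular to TFRC. It was also below the gene's median ratio in NCOA4 (1.17 against 1.36), TF (1.02 against 1.10) and ACO1 (0.88 against 1.01). The same held for SLC11A2 (0.93 against 1.08), SLC40A1 (0.49 against 0.64) and IREB2 (0.52 against 0.68). FTH1 (1.78 against 1.72) and FTL (1.18 against 1.10) had a last stretch above the median. The transcript searched for IREs has all 4 matches in its last exon.
The files also split TFRC among 4 RefSeq transcripts. NM_001128148 was at 758 TPM with JIB-04 and 279 TPM with DMSO, and NM_003234 at 620 and 456 TPM, so that NM_003234 took 44.0% of the gene with JIB-04 and 60.4% with DMSO. These transcripts differ in the first exon, and the 212 bases found in NM_003234 alone had a coverage of 15.6 with JIB-04 and 9.25 with DMSO on the TPM scale, far below the level given to that transcript. The 71 bases found only in the other 3 transcripts had 214 with JIB-04 and 87.7 with DMSO. That too was well below the level given to NM_001128148. The split is therefore less certain than the sum.

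SLC11A2 transcripts end in either of 2 last exons, of which that nearer to the start of the gene holds the IRE match. The 6 transcripts with the nearer end summed to 56.1 TPM with JIB-04 and 54.7 TPM with DMSO, a ratio of 1.03, and the 3 with the farther end to 22.1 and 23.0 TPM, a ratio of 0.96. The nearer end took 71.8% of the gene's TPM with JIB-04 and 70.4% with DMSO. The exon coverage did not follow these sums closely. On the TPM scale, the 2390 bases of the nearer last exon had 55.4 with JIB-04 and 59.6 with DMSO, a ratio of 0.93. Of the farther last exon, the 1580 bases in the middle had 8.57 and 12.5, a ratio of 0.68, and the stretches on either side of them had ratios of 1.20 and 1.02. At the 5′ side, the first exon that lies farthest upstream (51421960 to 51422058) had a coverage of 8.54 with JIB-04 and 5.37 with DMSO, and the common first exon one of 13.6 and 11.3. The next shared exon (51404478 to 51404549) had 78.8 with JIB-04 and 50.2 with DMSO, a ratio of 1.57, while the 14 shared stretches from the fifth onward lay between 0.91 and 1.13.

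**Figure D2:**
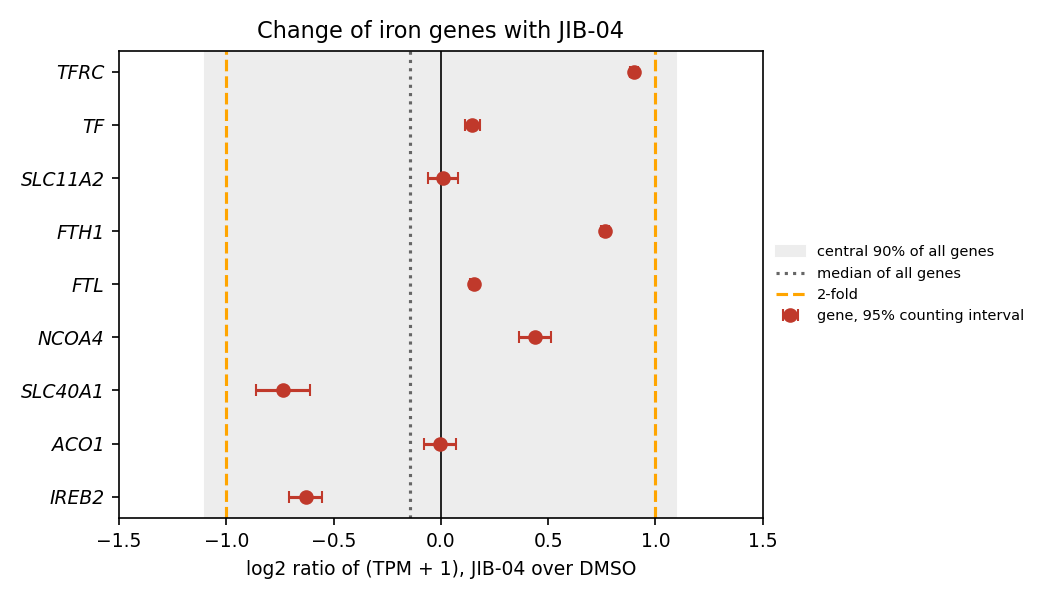
Log2 ratio of TPM + 1, JIB-04 over DMSO, for the 9 iron genes, with bars for the 95% counting interval, the central 90% of all genes in gray (-1.10 to 1.10), their median (-0.15) dotted and 2-fold dashed. TFRC (0.90) and FTH1 (0.77) lie farthest right, SLC40A1 (-0.73) and IREB2 (-0.63) farthest left, and all 9 lie inside the gray band.

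Among the storage genes, the heavy ferritin subunit had a higher ratio than the light one. FTH1 (Entrez ID 2495, chromosome 11, 61731757 to 61735132, minus strand), whose product is the ferroxidase subunit, was at 4939 TPM with JIB-04 and 2904 TPM with DMSO. Its log2 ratio was 0.77 (interval 0.75 to 0.78), above that of 90.9% of genes, and its rank by TPM among all genes was 8 with JIB-04 and 19 with DMSO. FTL (Entrez ID 2512, chromosome 19, 49468566 to 49470136, plus strand), whose product aids the formation of the iron core, was at 7664 TPM with JIB-04 and 6893 TPM with DMSO. It was the 4th most abundant gene in both libraries, with a log2 ratio of 0.15 (interval 0.14 to 0.17).
The ratio of FTH1 to FTL was 0.644 with JIB-04 and 0.421 with DMSO on the TPM scale, which corrects for length. Both subunits together made up 1.26% of all TPM with JIB-04 and 0.980% with DMSO. All 4 exons of FTH1 were higher with JIB-04, by ratios of 1.61 to 1.80, and all 4 of FTL by 1.05 to 1.18. Ferritin genes have many processed pseudogenes of near-identical sequence, among which reads can be shared, so both levels are uncertain.

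NCOA4 (Entrez ID 8031, chromosome 10, 51565108 to 51590734, plus strand) encodes the receptor that delivers ferritin to lysosomes, where its iron is released. It was at 87.6 TPM with JIB-04 and 64.2 TPM with DMSO, with a log2 ratio of 0.44 (interval 0.37 to 0.52), above that of 82.9% of genes. Of 10 shared exon stretches, 8 were higher with JIB-04 and 2, both near the 5′ end, were lower.
Its transcripts differ in their first exon and did not share a direction. NM_005437 was at 41.5 TPM with JIB-04 and 21.8 TPM with DMSO, and NM_001145262 at 11.4 and 2.34 TPM, whereas NM_001145263 was at 34.6 and 39.2 TPM. Coverage of the first exons pointed the same way, on the TPM scale. That of NM_005437 had 12.8 with JIB-04 and 7.94 with DMSO, that of NM_001145262 had 4.46 and 1.01, and the upstream exon of NM_001145263, which 2 minor transcripts share, had 5.42 and 8.69. The share of NM_001145263, the most abundant transcript with DMSO, was 39.5% with JIB-04 and 61.1% with DMSO. These first exons were thinly covered in both libraries.

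**Figure D3:**
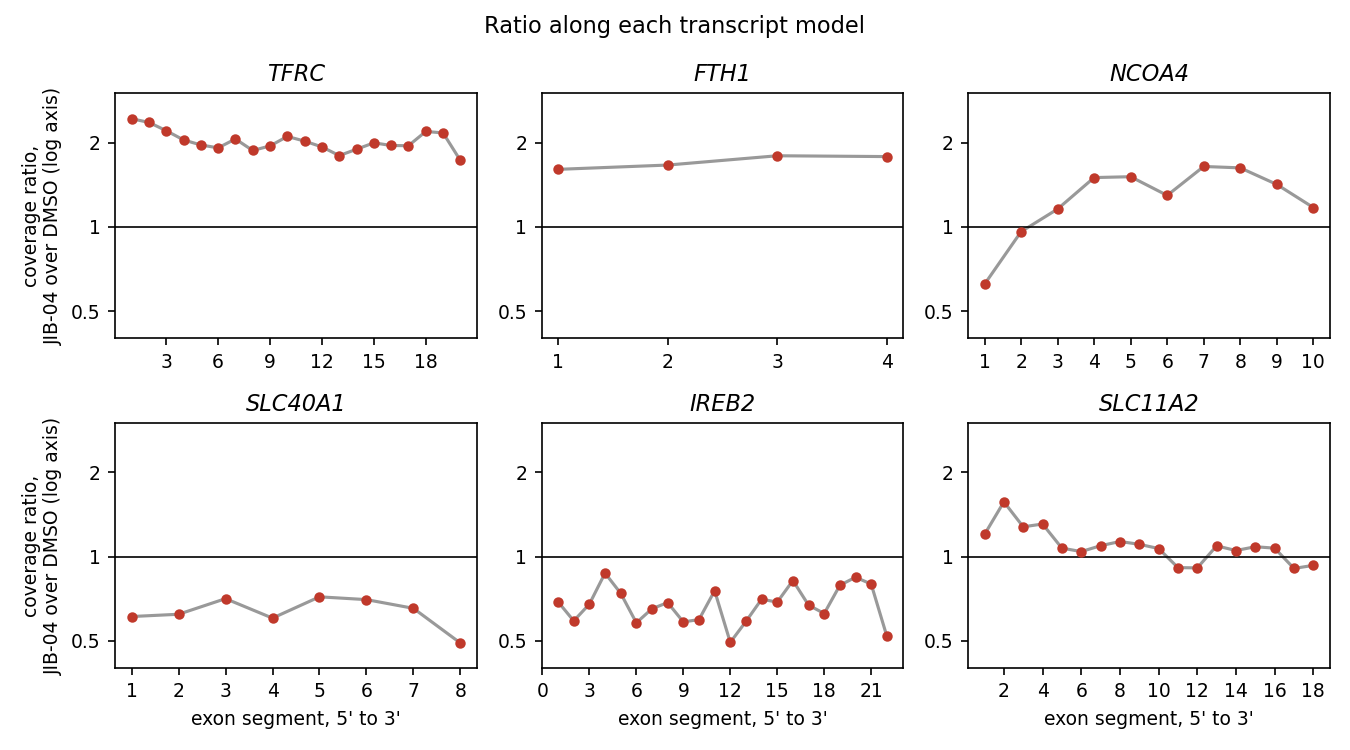
Ratio of exon coverage on the TPM scale, JIB-04 over DMSO, along 6 iron genes from the 5′ to the 3′ end on a log axis, 1 point per stretch of at least 40 bases that at least 50% of the transcripts contain. All 20 points of TFRC and all 4 of FTH1 lie above 1, all 8 of SLC40A1 and all 22 of IREB2 below 1, and NCOA4 crosses 1 near its 5′ end.

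Among the export genes, SLC40A1 (Entrez ID 30061, chromosome 2, 190425316 to 190445537, minus strand), which encodes ferroportin, the known exporter of iron, was at 21.3 TPM with JIB-04 and 36.2 TPM with DMSO. Its log2 ratio, from an estimated 704 fragments with JIB-04 and 1445 with DMSO, was -0.73 (interval -0.86 to -0.61), the lowest of the 9 genes, and 14.3% of all genes lay below it. All 8 exons were lower with JIB-04, with ratios between 0.49 and 0.72 and the lowest in the last exon. The TPM of TFRC was 66.1 times that of SLC40A1 with JIB-04 and 20.9 times with DMSO. This pair holds the highest and the lowest log2 ratio of the 9 genes, so no other pair among them differs more. HAMP (Entrez ID 57817, chromosome 19, 35773249 to 35776045, plus strand), the hepcidin gene, was listed at 0 in both libraries, and its response could therefore not be described.

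The genes of the iron regulatory proteins differed from each other. ACO1 (Entrez ID 48, chromosome 9, 32384601 to 32450832, plus strand) encodes IRP1, which carries an iron-sulfur cluster and acts as cytosolic aconitase when iron is ample. It was at 74.3 TPM with JIB-04 and 74.4 TPM with DMSO, with a log2 ratio of -0.0020 (interval -0.08 to 0.07). IREB2 (Entrez ID 3658, chromosome 15, 78730518 to 78793798, plus strand) encodes IRP2, which is degraded when iron is ample, a control on the protein that RNA does not show. It was at 33.9 TPM with JIB-04 and 53.0 TPM with DMSO, with a log2 ratio of -0.63 (interval -0.71 to -0.55), and 18.8% of all genes lay below it.
All 22 shared exon stretches of IREB2 were lower with JIB-04 (ratios 0.49 to 0.87), whereas 13 of the 21 of ACO1 were higher and 8 lower (0.87 to 1.29). The TPM of ACO1 was 2.19 times that of IREB2 with JIB-04 and 1.40 times with DMSO. The main IREB2 transcript NM_004136 was at 25.2 TPM with JIB-04 and 47.0 TPM with DMSO, and NM_001320942, which starts at another first exon, at 5.73 and 2.50 TPM. The exon that sets NM_001320942 apart (435 bases) was at nearly equal coverage in both libraries, 2.42 with JIB-04 and 2.58 with DMSO on the TPM scale. The minor transcript NM_001320943, with 8 exons, was at 3.05 TPM with JIB-04 and 2.26 TPM with DMSO, and the second ACO1 transcript NM_001278352 at 5.37 and 3.41 TPM.

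Set against the known pattern of iron shortage, the members divided as follows. TFRC, with 4 IRE matches in its 3′ UTR, was higher, while the SLC11A2 transcripts that end with the IRE were at a ratio of 1.03 by their TPM and 0.93 by the coverage of that last exon. The genes with a 5′ IRE had 3 different outcomes, with FTH1 higher, FTL at a ratio of 1.11 and SLC40A1 lower. Since a 5′ element acts on translation, these mRNA levels leave the amounts of ferritin and ferroportin protein unmeasured. HAMP could not be read.

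A wider list of 99 iron genes, written from general knowledge and leaving out the 10 above, put these values beside their pathway. Of 87 that reached 1 TPM, 5 rose at least 2-fold with JIB-04 (5.75%, against 5.99% of all genes) and 5 fell as much (5.75%, against 6.88%). Their median log2 ratio was -0.13, against -0.15 for all genes. At 1.5-fold, 9 were higher (10.3%, against 12.8% of all genes) and 20 lower (23.0%, against 21.0%), so the list as a whole was close to the background. Counts by role are of genes that reached 1 TPM.
Of 12 other uptake genes, none was 2-fold higher (5.99% of all genes were) and 2 were lower (16.7%, against 6.88%). At 1.5-fold, 1 was higher (8.33%, against 12.8% of all genes) and 5 were lower (41.7%, against 21.0%). The 1 higher was STEAP3, the main ferrireductase of endosomes, at 83.5 TPM with JIB-04 and 51.6 TPM with DMSO (log2 ratio 0.68). STEAP1, of the same family, had 7.81 TPM with JIB-04 and 32.0 TPM with DMSO (-1.90), and SCARA5, a receptor for ferritin, had 7.67 and 20.1 TPM (-1.28). Of the 4 other storage and release genes none passed 2-fold. The iron chaperone gene PCBP2 had the highest log2 ratio (-0.07), and HERC2, whose product targets NCOA4 for degradation, the lowest (-0.47).
Of 11 genes of export and heme recycling, 2 were at least 2-fold higher and none 2-fold lower. HMOX1, which encodes the heme oxygenase that frees iron from heme, was at 944 TPM with JIB-04 and 225 TPM with DMSO, which gave the highest log2 ratio of the wider list, 2.06 (interval 2.02 to 2.11). LRP1, a receptor for hemopexin and many other ligands, was just past 2-fold at 71.8 TPM with JIB-04 and 35.1 TPM with DMSO (log2 ratio 1.01). ABCG2, a porphyrin exporter, was at 9.60 and 17.2 TPM, the lowest log2 ratio (-0.78) among those with a mean of at least 5 TPM.

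Of the 22 genes in the hepcidin control list, 20 reached 1 TPM, with a median log2 ratio of 0.0050. HJV and TMPRSS6 stayed below 1 TPM in both libraries. BMP2, a ligand of the BMP pathway that drives HAMP, was at 59.4 TPM with JIB-04 and 24.9 TPM with DMSO (log2 ratio 1.22). ID1, a target gene of that pathway, was at 439 TPM with JIB-04 and 948 TPM with DMSO (-1.11), and ATOH8, also a BMP-responsive gene, at 2.96 and 15.3 TPM (-2.04). Targets of the pathway did not share a direction, since the inhibitory SMAD7 was at 24.0 TPM with JIB-04 and 12.4 TPM with DMSO (0.90) and SMAD6 at 35.5 and 38.7 TPM (-0.12). TFR2, which helps hepatocytes sense transferrin, was listed at 0 in both libraries, as was the plasma protein gene HP.
By role, 8 genes control IRPs, have known or proposed IREs or, for ZFP36 alone, act on TFRC mRNA. None of these 8 passed 2-fold, where 5.99% of all genes rose and 6.88% fell as much. FBXL5, the iron-sensing ubiquitin ligase subunit that degrades IRP2, had the lowest log2 ratio (-0.46, at 23.7 TPM with JIB-04 and 33.0 TPM with DMSO). ZFP36, which encodes tristetraprolin, an RNA-binding protein that promotes decay of TFRC mRNA, had the highest (0.65, at 199 and 127 TPM).
For the 22 mitochondrial iron and iron-sulfur cluster genes the median was -0.37 on the log2 scale, with 17 below 0 (77.3%) and 5 above, where 60.3% of all genes were below 0 and their median was -0.15. GLRX5, which carries clusters between steps of assembly, was at 68.5 TPM with JIB-04 and 149 TPM with DMSO (-1.11). ISCA1, a late assembly factor, was at 192 and 70.2 TPM (1.44), and IBA57, which works with it, at 10.3 and 3.66 TPM (1.28). Among the 10 cytosolic assembly genes none passed 2-fold, with MMS19 highest (0.42), CIAO2A lowest (-0.80) and a median of -0.27.

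**Figure D4:**
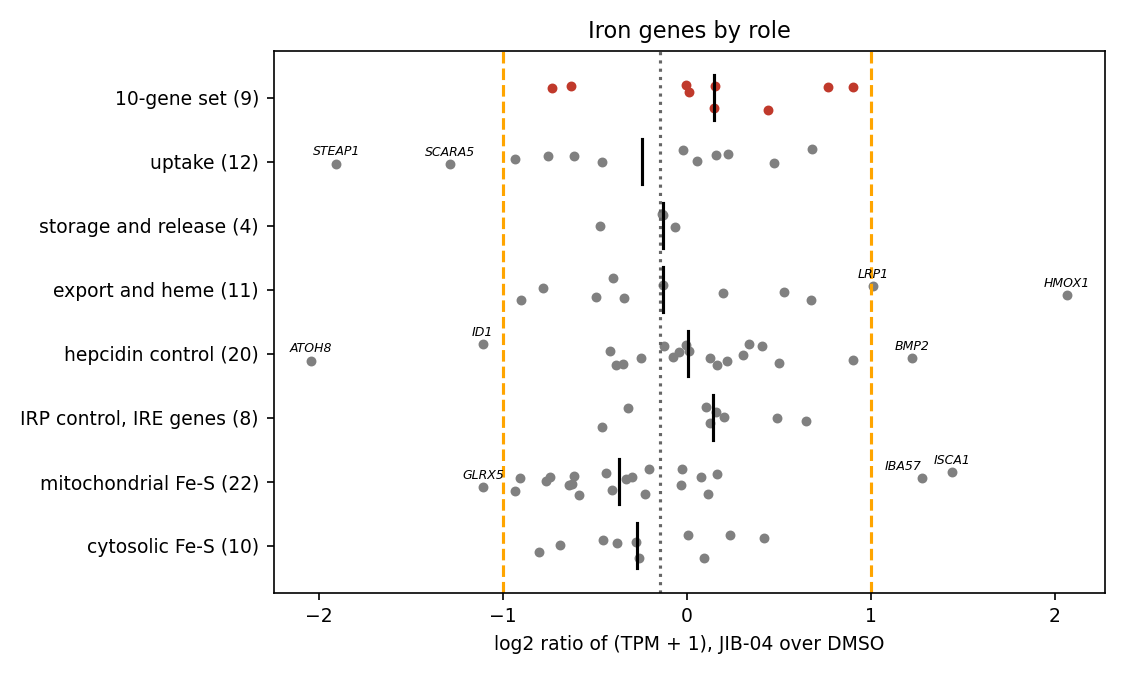
Iron genes that reached 1 TPM, drawn as points in rows by role (gene numbers in parentheses), the x axis giving the log2 ratio of TPM + 1, JIB-04 over DMSO; black bars are row medians, the dotted line the median of all genes and dashed lines 2-fold. The 9 genes of the set, in red, lie within 2-fold, while 10 of the wider list, named on the plot, lie past it, from ATOH8 at -2.04 to HMOX1 at 2.06.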

How the data were processed

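Tools named in the processing notes of the submitters are StringTie 1.3.3b, Bowtie2 2.2.6, HISAT2 2.0.5, FastQC 0.11.5 and Trimmomatic 0.32, with the build hg19 (GRCh37), and the study describes stranded mRNA libraries. Per the file headers, StringTie estimated annotated RefSeq transcripts only, with a strand setting. The authors deposited coverage, FPKM and TPM for each transcript, without read counts, and coverage for each exon.

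TPM was summed per gene. Symbols for 27559 of 27685 Entrez IDs came from a RefSeq table of another assembly, used for names only. Multiplying coverage by length and dividing by 202 bases, the step size seen at low coverage, gave estimated fragments. A gene was called at a TPM + 1 ratio of at least 2 or at most 0.5. No exon of the 10 genes overlapped another gene on its strand. The members and lists were chosen with earlier results of these data known. From the wider list were named genes past 2-fold with at least 5 TPM in a library, and the highest and lowest of each role with a mean TPM of at least 5; HP, TFR2, SMAD6 and SMAD7 were chosen after their values were seen. Alternatives were pseudocounts of 0.1 and 5, FPKM, median scaling, quantile normalization, the most abundant transcript, other filters and thresholds of 1.5-fold and 3-fold. The procedure was tested on simulated data. Python 3.11.15, numpy 2.4.6, pandas 2.3.3, SciPy 1.17.1 and matplotlib 3.10.9 were used.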

Additional observations from a re-analysis of the deposited data

How the results depend on the processing

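With 1 library per condition no replicate could be left out. No paired analysis was possible because each condition has 1 library. Under 6 alternatives for each gene, TFRC (0.44 to 1.05), TF, FTH1, SLC40A1 and IREB2 kept the sign of their log2 ratio, while SLC11A2 (-0.02 to 0.16), NCOA4 (-0.18 to 0.59) and ACO1 (-0.04 to 0.15) did not. FTL (0 to 0.31) was never negative and was at 0 with quantile normalization only. With median scaling the log2 ratios were 1.05 for TFRC, 0.30 for TF, 0.16 for SLC11A2, 0.92 for FTH1, 0.31 for FTL, 0.59 for NCOA4, -0.59 for SLC40A1, 0.15 for ACO1 and -0.48 for IREB2. With quantile normalization they were 0.10 for TF, 0.11 for SLC11A2, 0.68 for FTH1, 0 for FTL (4th in both libraries, so equal by construction), 0.54 for NCOA4, -0.58 for SLC40A1, 0.10 for ACO1 and -0.49 for IREB2. With FPKM they were 0.87 for TFRC, 0.74 for FTH1 and 0.13 for FTL. With the most abundant transcript alone they were 0.44 for TFRC, -0.18 for NCOA4 and -0.88 for IREB2, since other transcripts of these genes had other ratios.

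No member was past 2-fold, except 1 higher with median scaling; at 1.5-fold 2 were higher and 2 lower. In the wider list 5 were higher, against 3 with a pseudocount of 5, 9 at 1.5-fold and 1 at 3-fold, and 5 were lower, against 3 with median scaling, 9 with the most abundant transcript, 20 at 1.5-fold and 2 at 3-fold. Over all genes 865 were higher, against 439 with a pseudocount of 5, 1853 at 1.5-fold and 318 at 3-fold, and 994 were lower, against 409, 3030 and 154 in the same order and 661 with median scaling. Median scaling gave 1089 higher. A pseudocount of 0.1 gave 1160 higher and 1436 lower, FPKM 583 and 695, and quantile normalization 1006 and 758. The most abundant transcript gave 1082 higher and 1285 lower, and a filter of 5 TPM 646 and 823. The first exons that set transcripts apart had low coverage, and HAMP was listed at 0; whether depth plays a part in either was not tested.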
